A study of Mus musculus with 2 samples.

Results

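The genes described here are the epidermal growth factor (EGF) receptor family and some of its ligands in mouse skin. The receptors are Egfr, Erbb2, Erbb3 and Erbb4. The EGFR ligands are Areg (amphiregulin), Ereg (epiregulin), Hbegf (heparin-binding EGF-like growth factor), Tgfa (transforming growth factor alpha) and Btc (betacellulin). The neuregulin Nrg1 completes the list. The 10 members were taken by gene symbol without a filter on their values, and all 10 were found among the 32285 genes of the count matrices. The list was, however, chosen with earlier results of these data known. The same holds for the list of 47 other pathway genes given below. Dorsal skin of male C3H/HeN mice had been dissociated and run as droplet single-cell RNA-seq, in which each RNA molecule captured is counted once as a unique molecular identifier (UMI). The control group received vehicle. The TP group received 0.5 mg of testosterone propionate per day under the skin, a model of androgenetic alopecia, and the mice of both groups were 7 weeks old at the start and 9 at harvest and had been shaved. Each group was 1 library made from the pooled skin of 15 mice. A group treated with TP and an antibody was not analysed here.

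With 1 library per group there was no replicate check and no test, so group and library cannot be told apart. Values are given as levels per 1000000 UMIs of the cells named (CPM), as the ratio of the TP level to the control level, and with 95% exact intervals that cover counting error only. A gene was counted as higher or lower in TP where it had at least 50 UMIs over both libraries and the levels were at least 2-fold apart after 1 UMI was added to each library. Where a level is a sum over all cells, more cells of a type and more RNA per cell cannot be told apart.

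EGFR family receptors pair up on the cell surface when a ligand binds, and the pair phosphorylates itself and feeds the RAS and ERK cascade, among others. The ligands are made as membrane-anchored precursors that a protease, chiefly ADAM17, cuts free. AREG, EREG, HBEGF, TGFA and BTC bind EGFR, and HBEGF, EREG and BTC also bind ERBB4. Neuregulins bind ERBB3 and ERBB4, while ERBB2 has no ligand of its own and works as a partner of the others. In skin, keratinocytes make both EGFR and its ligands, and the loop takes part in keratinocyte growth, wound repair and the hair cycle.

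The libraries held 45709 barcodes in control and 25931 in TP, of which 39076 and 18542 were kept, with medians of 2052 and 4773.5 UMIs per cell. The limit of 10% mitochondrial counts removed 7.58% of the control barcodes and 22.6% of the TP barcodes. Both libraries shared 303 barcodes, of which 187 were kept in both. Cells were clustered without the 10 members and without the 47 other pathway genes given below, and 19 classes were named from marker genes, leaving 22.1% of control cells and 9.30% of TP cells in 7 unnamed clusters. The mix of classes differed between the libraries: inner root sheath-like cells made up 18.7% of control cells and 5.30% of TP cells, and dermal papilla cell (DPC)-like cells were 3916 and 1344 in number. Interfollicular epidermis (IFE) basal-like cells were 2821 and 3085, IFE suprabasal-like cells 1740 and 2331, granular-like cells 1482 and 1977, and dermal fibroblast (DF)-like cells 185 and 612. Levels summed over all cells therefore carry the class mix with them, and those of the members are followed by levels within classes. Most of the other pathway genes are given over all cells only.

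In the mouse genome (GRCm38.p6), Ereg, Areg and Btc lie side by side on chromosome 5 with another EGFR ligand, Epgn (epigen), and these 4 are the coding genes of a span of 375478 bases. Areg occupies chr5:91139599-91148432, Ereg chr5:91074617-91093649 and Btc chr5:91357261-91402994. Tgfa lies elsewhere, at chr6:86195038-86275744. The receptors are Egfr at chr11:16752203-16913907, Erbb2 at chr11:98412484-98437716, Erbb3 at chr10:128567523-128589635 and Erbb4 at chr1:68031884-69108576. Erbb2 overlaps the coding gene Mien1.

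Promoter sequences, 250 bases before to 50 bases after the start listed for the promoter on the strand of the gene, were found in RefSeq (GRCm38.p6) for 6 of the 10 members and for Epgn. For Tgfa and Erbb4 the start used lies inside the gene span given above. Most of the Tgfa sequence and all of the Erbb4 sequence (chr1:69108010-69108309) therefore lie within the gene. The promoters of the 3 EGFR ligands with an entry that were higher in TP are printed. Areg and Epgn lie in the same group on chromosome 5 and had like ratios, and Tgfa lies on another chromosome. The group did not share 1 ratio: Ereg, between Epgn and Areg, was at 7.09 and Btc at 1.97. Areg is at chr5:91139349-91139648, Epgn at chr5:91027267-91027566 and Tgfa at chr6:86194972-86195271, all on the plus strand. Capitals mark 3 motifs searched on both strands: TGANTCA, bound by AP-1 (FOS and JUN) proteins, TGACGTCA, bound by CREB and ATF proteins, and GGGCGG, bound by SP1, with no overlap between the first and the others.
Areg: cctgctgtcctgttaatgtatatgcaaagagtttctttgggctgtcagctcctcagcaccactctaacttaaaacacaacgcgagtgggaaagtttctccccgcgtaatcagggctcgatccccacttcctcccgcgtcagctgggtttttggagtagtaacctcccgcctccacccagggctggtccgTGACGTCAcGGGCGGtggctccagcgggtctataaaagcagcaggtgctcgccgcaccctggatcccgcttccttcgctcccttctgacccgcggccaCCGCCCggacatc
Epgn: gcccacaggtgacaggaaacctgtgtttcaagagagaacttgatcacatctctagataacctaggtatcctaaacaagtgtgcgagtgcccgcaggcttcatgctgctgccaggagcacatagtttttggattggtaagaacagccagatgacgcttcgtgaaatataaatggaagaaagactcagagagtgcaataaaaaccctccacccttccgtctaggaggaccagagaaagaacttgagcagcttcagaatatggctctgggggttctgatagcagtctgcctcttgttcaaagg
Tgfa: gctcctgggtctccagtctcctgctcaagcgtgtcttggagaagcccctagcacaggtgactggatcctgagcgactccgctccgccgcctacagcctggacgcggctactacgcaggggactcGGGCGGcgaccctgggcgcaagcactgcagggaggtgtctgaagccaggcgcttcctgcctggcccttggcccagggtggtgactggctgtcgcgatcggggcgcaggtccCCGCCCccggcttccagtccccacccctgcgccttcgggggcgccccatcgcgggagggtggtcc
Only the Areg promoter, among the 7 read, held TGACGTCA, a word found in 1.79% of 32851 mouse promoters of the same length. GGGCGG stood in the promoters of Areg, Tgfa and Egfr and in 35.7% of all promoters. None of the 7 held TGANTCA, which 7.81% of all promoters held.

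Over all kept cells, 4 EGFR ligands were higher in TP: Hbegf 7.30-fold, Ereg 7.09-fold, Areg 3.17-fold and Tgfa 2.12-fold. No member was lower. Family ligands outside the list went both ways: Epgn was higher (3.37-fold), and Nrg2 and Nrg3 were lower (ratios 0.272 and 0.257). The counts therefore hold for the 10 listed genes only. The count of 4 of 10 higher and 0 of 10 lower stands against 8.11% of 17561 genes higher and 10.3% lower, or 18.4% in either direction. The median log2 ratio was 0.62 over the members and -0.23 over all genes. With every cluster weighted by its share of control UMIs, so that the class mix was held, 3 of 10 members (Areg, Ereg and Hbegf) were higher and 0 lower, against 3.06% of genes higher and 3.02% lower. The receptors and Nrg1 were less than 2-fold apart. TMM scaling, in which the TP factor was 0.844 of the control factor, raised every ratio alike and brought Btc to 2.34-fold.

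**Figure D1:**
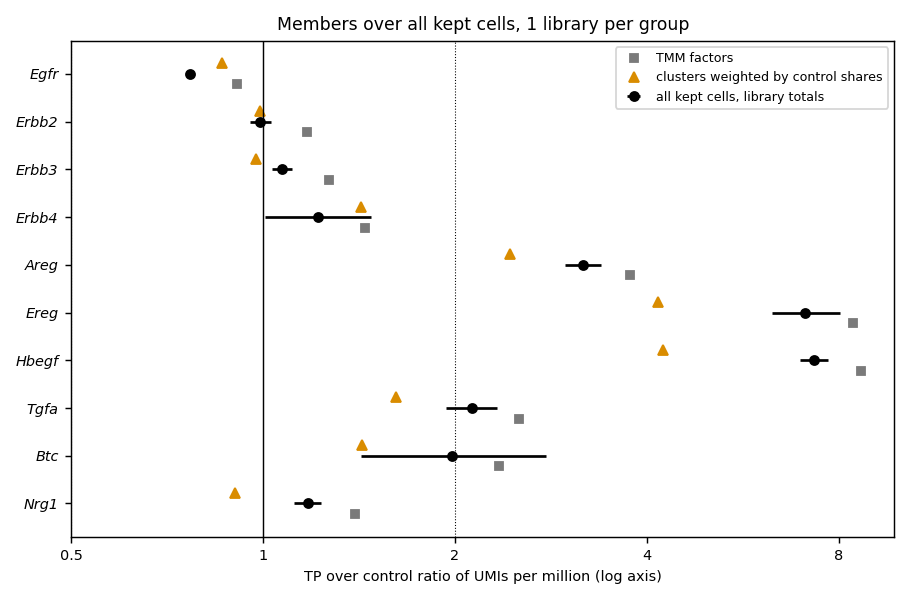
TP to control ratio of each member over all kept cells on a log2 axis, with points for library totals (bars, 95% counting interval), squares for TMM scaling and triangles for clusters weighted by their control shares. The 4 ligands Hbegf, Ereg, Areg and Tgfa lie above 1 under all 3, and Erbb2, Erbb3 and Nrg1 lie on both sides of 1.

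Hbegf, whose product also binds heparan sulfate, lies at chr18:36504927-36515805 and had 1694 UMIs in control and 15122 in TP, or 15.9 CPM (95% interval 15.1–16.6) and 116 CPM (114–118). With the class mix held the ratio was 4.24, smaller but still above 2-fold. Ereg had 292 UMIs and 2531 UMIs, a level of 2.74 CPM (2.43–3.07) and 19.4 CPM (18.6–20.2), and its ratio with the class mix held was 4.17. Areg had 1170 and 4536 UMIs, a level of 10.96 CPM (10.3–11.6) and 34.8 CPM (33.8–35.8), and a ratio of 2.44 with the class mix held. Tgfa had 631 and 1638 UMIs, a level of 5.91 CPM (5.46–6.39) and 12.6 CPM (11.95–13.2). Its ratio fell under 2-fold, to 1.61, with the class mix held. Btc was the lowest member in both libraries, with 53 and 128 UMIs, a level of 0.497 CPM (0.372–0.650) and 0.981 CPM (0.818–1.17), and a ratio of 1.97 (1.42–2.77) that missed the 2-fold limit on library totals.

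In IFE basal-like cells, the dividing layer, 4 of the 7 members with enough UMIs were higher in TP (Areg, Hbegf, Tgfa and Nrg1) and 0 were lower, where 1.57% of 11155 genes were higher, 4.61% were lower and 6.18% were either. Areg stood at 5.16 CPM (3.53–7.29) in control and 49.6 CPM (45.8–53.6) in TP, for a ratio of 9.61 (6.74–14.2) from 32 and 630 UMIs. Hbegf stood at 48.7 CPM (43.4–54.5) and 222 CPM (214–230), for a ratio of 4.55 (4.04–5.14). Tgfa stood at 7.42 CPM (5.43–9.90) and 32.4 CPM (29.3–35.6), for a ratio of 4.36 (3.21–6.05). The intervals of the 2 libraries were apart for each of these ligands. Both IFE basal-like clusters took part. Hbegf was 5.45-fold higher (4.71–6.34) in the cluster led by Krt14 and 2.71-fold (2.20–3.37) in that led by Sox6, while the Areg ratios of 10.2 (6.79–16.1) and 7.28 (3.57–17.3) overlapped.

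In IFE suprabasal-like cells, which lie above the basal layer, 3 of 7 members were higher in TP and 0 lower, where 1.39% of 11034 genes were higher, 6.76% lower and 8.15% either. Hbegf reached its highest TP level of all classes here (in IFE basal-like cells with clusters at resolution 0.5), with 253 CPM (245–260) in TP against 46.3 CPM (40.9–52.2) in control, for a ratio of 5.46 (4.83–6.20). In the TP library it was found in 14.5% of these cells after every cell was thinned to 1000 UMIs and in 41.0% before thinning, while after thinning lymphocyte-like cells, taken as the measure of free RNA, showed it in 1.94% (0.236–6.84). Areg was 4.21-fold higher (3.02–6.02) and Tgfa 4.76-fold (2.66–9.39), from levels of 6.59 CPM and 2.08 CPM in control.

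Granular-like cells, the outermost living layer, held most of the Ereg. Of the UMIs of all genes, they held 11.6% in control and 25.3% in TP. They carried 71.9% of the Ereg UMIs of the control library and 89.5% of those of the TP library, with 17.0 CPM (14.8–19.5) in control and 68.6 CPM (65.8–71.5) in TP, for a ratio of 4.04 (3.503–4.67) that was 2.58 with clusters at resolution 0.5. The thinned share of cells with an Ereg UMI was 1.22% (0.722–1.91) in control and 5.03% (4.10–6.08) in TP, against 0.242% of control melanocyte-like cells, taken as the background for this gene, and 0 of 174 such TP cells (3 counts allow a share of up to 1.72%). Outside this class Ereg was scarce: IFE basal-like cells had 1 UMI in control and 33 in TP, with a ratio of 16.1 and an interval of 2.70–655. Areg in granular-like cells stood at 20.2 CPM (17.8–22.9) and 71.0 CPM (68.2–74.0), for a ratio of 3.51 (3.08–4.02), and these cells held 21.4% of all Areg UMIs in control and 51.7% in TP. Hbegf there was 4.02-fold higher (3.67–4.42) and Tgfa 2.52-fold (1.89–3.42), the latter 1.45-fold after thinning.

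**Figure D2:**
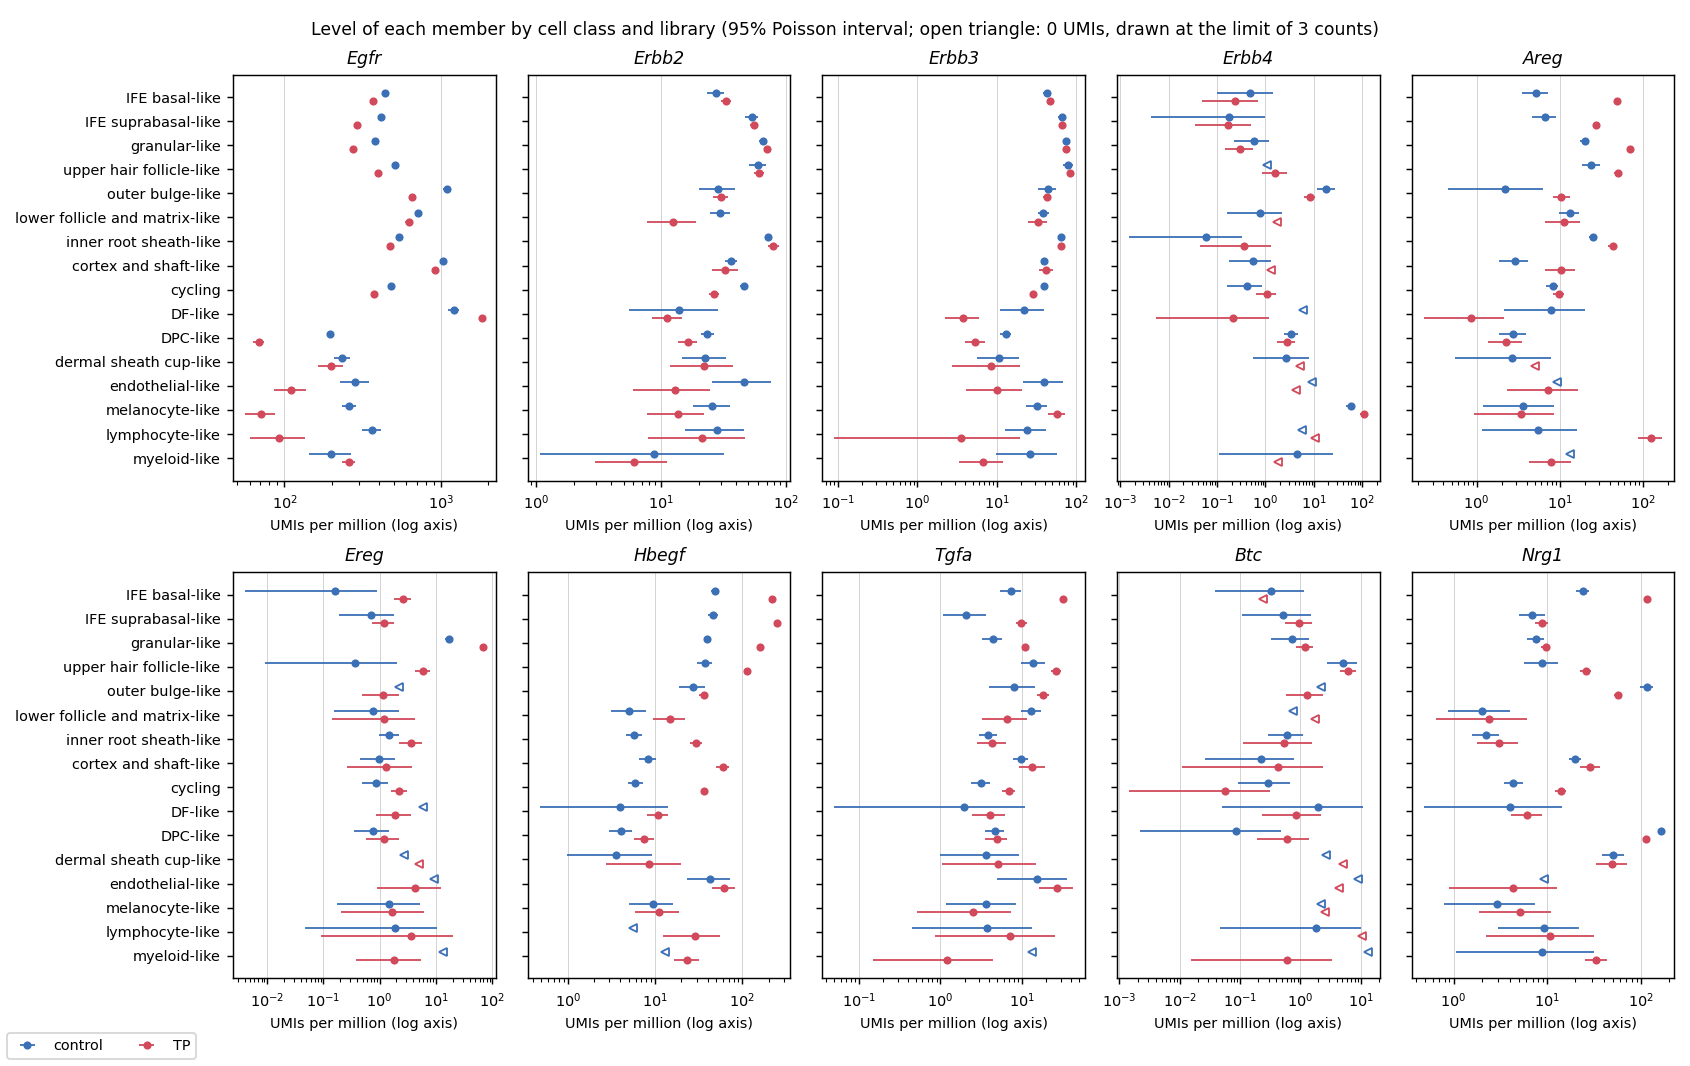
Level of each member (CPM, log axis) in the 16 classes of at least 100 cells in both libraries, control in blue and TP in red, bars the 95% counting interval and open triangles the limit set by 3 counts where no UMI was seen. Ereg is at 17.0 and 68.6 CPM in granular-like cells, and Egfr at 1204 and 1844 CPM in DF-like cells.

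In upper hair follicle-like cells, the part of the follicle that opens onto the epidermis, 3 of 8 members were higher in TP (Areg, Hbegf and Nrg1) and 0 lower, against 1.34% of 10294 genes higher, 3.54% lower and 4.88% either. Areg was at 24.1 CPM (18.7–30.7) and 50.8 CPM (45.8–56.2), Hbegf at 37.3 CPM (30.4–45.3) and 114 CPM (106–122), and neither pair of intervals met. After thinning to 1000 UMIs per cell, Hbegf alone of these 3 both had enough UMIs and passed the 2-fold limit. Of 6746 genes tested after thinning, 180 were 2-fold apart. The thinned ratios were 3.17 for Hbegf, 3.99 for Nrg1 and 1.56 for Areg. Among the classes of at least 100 cells Btc had its highest level here, with 14 and 47 UMIs, or 26.4% and 36.7% of all its UMIs, and its 5.12 CPM (2.80–8.58) and 6.30 CPM (4.63–8.38) overlapped.

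Inner root sheath-like cells had carried 36.0% of the Areg UMIs in control and held 5.34% in TP, where they were fewer. The Areg level within them was 25.1 CPM (22.8–27.6) in control, overlapping that of the upper hair follicle-like and granular-like cells, and 43.8 CPM (38.5–49.7) in TP, for a ratio of 1.74 (1.48–2.05). Its clusters did not share 1 ratio: that led by Krt73, with 333 of the 421 control UMIs, was at 1.16 (0.941–1.42), and those led by Sytl2 and Crym were at 3.18 (2.23–4.51) and 6.13 (3.40–11.6). Hbegf was scarce in control in inner root sheath-like and in cortex and shaft-like cells, at 5.79 and 8.29 CPM. It was 5.13-fold higher (3.97–6.66) in the first and 7.24-fold (5.42–9.72) in the second, at 29.7 and 59.97 CPM in TP. The ratio in cortex and shaft-like cells moved to 4.33 with clusters at resolution 0.5 and to 14.99 after thinning. Thinning left fewer Hbegf UMIs than the 75 in control and 138 in TP before it. The free RNA measure, TP lymphocyte-like cells at 28.5 CPM (12.3–56.1), rested on 8 Hbegf UMIs, and its thinned share of 1.94% (0.236–6.84) overlapped those of 2.70% (1.76–3.96) in inner root sheath-like and 5.84% (3.69–8.70) in cortex and shaft-like cells. In the same library Hbegf was lower in DPC-like cells, at 7.55 CPM (5.80–9.65), and DF-like cells, at 10.8 CPM (8.04–14.2), than in inner root sheath-like and cortex and shaft-like cells (25.3–34.6 and 50.4–70.8), with separate intervals. The early response genes Fos and Egr1 moved with Hbegf here, 4.80-fold and 4.24-fold higher in inner root sheath-like and 9.01-fold and 5.83-fold in cortex and shaft-like cells, and their part was not tested.

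Lymphocyte-like cells were a small source of Areg in TP, with 3 UMIs in 294 control cells and 35 UMIs in 142 TP cells, or 5.57 CPM (1.15–16.3) and 125 CPM (86.8–173). All 35 came from 10 cells of a single cluster of 36 TP cells led by Gzmc and Xcl1, cytotoxic lymphocyte genes, which had 1 Areg UMI in its 27 control cells. Myeloid-like cells had 0 Hbegf UMIs in 101 control cells, which allows up to 13.2 CPM by 3 counts, and 38 UMIs in 359 TP cells, or 23.2 CPM (16.4–31.9). That level overlapped the interval of the lymphocyte-like cells and lay above those of the DPC-like and DF-like cells. The cluster led by Ccl8 and C1qa, macrophage genes, made up 23.9% of the myeloid-like UMIs in control and 60.5% in TP. Endothelial-like cells had Hbegf at 42.9 CPM (23.4–72.0) and 61.8 CPM (44.7–83.3) and Tgfa at 15.3 CPM (4.97–35.7) and 27.3 CPM (16.4–42.7), with overlapping intervals for both.

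The ratios were also counted cluster by cluster. Among clusters with at least 20 UMIs of the gene over both libraries, the interval of the TP to control ratio lay above 1 in 15 of 22 for Areg, 19 of 26 for Hbegf, 5 of 6 for Ereg and 9 of 19 for Tgfa. It lay below 1 in 0 of these clusters for Areg, Hbegf and Ereg and in 1 for Tgfa. For Egfr it lay above 1 in 8 and below 1 in 23 of 39 clusters, and for Nrg1 in 6 and 2 of 18. The counts were 3 and 6 of 26 for Erbb2, 1 and 3 of 24 for Erbb3, 1 and 1 of 4 for Erbb4, and 0 and 0 of 2 for Btc. The same counts were not made over all genes, and clusters of the same 2 libraries are not replicates.

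Free RNA and early response genes were measured beside these ratios. In melanocyte-like cells, taken as the background for Areg, it had 3.66 CPM (1.19–8.54) in control against 3.39 CPM (0.923–8.67) in TP. These levels rest on few UMIs, and the intervals are too wide to show whether the Areg background differed between the libraries. Hbegf in lymphocyte-like cells was at 0 UMIs in control, which allows up to 5.57 CPM, and at 8 UMIs in TP, or 28.5 CPM (12.3–56.1), while in melanocyte-like cells it was at 9.51 CPM (5.06–16.3) and 11.01 CPM (5.86–18.8). Fos and Egr1, early response genes that tissue dissociation can also switch on, were 3.01-fold and 2.91-fold higher in TP over all cells. In granular-like cells Fos was at 1638 and 1576 CPM, for a ratio of 0.962, and Egr1 and Jun had ratios of 1.01 and 0.996. Fosl1, another early response gene, was 6.57-fold higher there, at 4.53 and 29.8 CPM. Areg, Ereg and Hbegf were between 3.51-fold and 4.04-fold higher in the same cells. In IFE basal-like cells Fos was 1.57-fold and Egr1 1.75-fold higher. In outer bulge-like, DF-like, DPC-like, lower follicle and matrix-like, inner root sheath-like, cortex and shaft-like and cycling cells both genes were more than 2-fold higher. The part of the Hbegf background and of the early response genes in the ligand ratios was not tested.

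**Figure D3:**
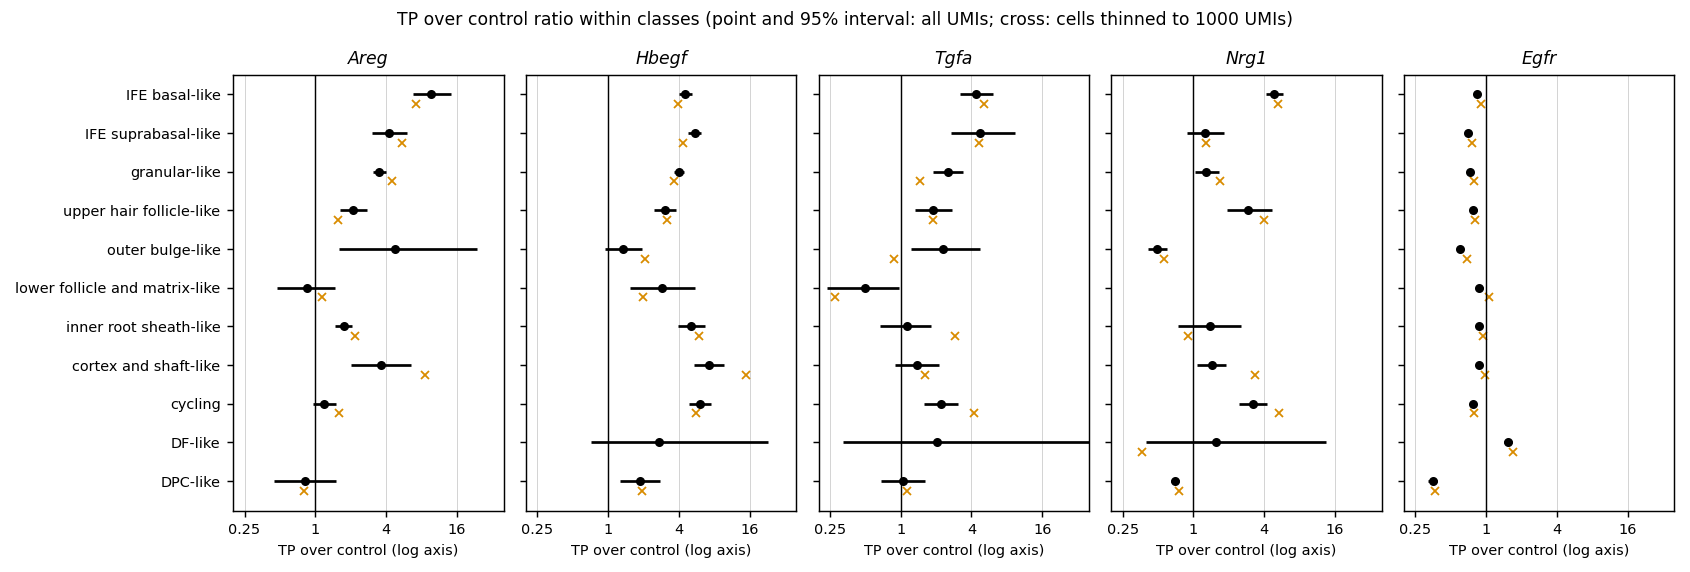
TP to control ratio of Areg, Hbegf, Tgfa, Nrg1 and Egfr in 11 classes on a log2 axis, with bars for the 95% counting interval and crosses for cells thinned to 1000 UMIs. Areg and Hbegf lie above 1 in IFE basal-like cells (9.61 and 4.55), Nrg1 lies above 1 there (4.86) and below 1 in outer bulge-like cells (0.493), and Egfr lies above 1 in DF-like cells (1.53).

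Nrg1, the ligand of ERBB3 and ERBB4, lies at chr8:31807452-32891609. Over all cells it had 2787 and 4003 UMIs, 26.1 CPM (25.2–27.1) and 30.7 CPM (29.7–31.6), and a ratio of 1.17 (1.12–1.23) that turned to 0.903 with the class mix held, to 1.84 after thinning and to 2.26 as the ratio of per-cell means of log(1 + scaled counts). Its sources differed between the libraries. DPC-like cells, the mesenchymal signalling cells at the base of the follicle, held 67.7% of Nrg1 UMIs in control and 23.6% in TP, and IFE basal-like cells 5.35% and 37.1%. Of the UMIs of all genes, DPC-like cells held 10.9% and 6.40%, and IFE basal-like cells 5.81% and 9.73%. IFE basal-like cells had Nrg1 at 24.0 CPM (20.3–28.2) in control and 117 CPM (111–123) in TP, for a ratio of 4.86 (4.11–5.79), and both clusters of the class showed it, at 4.67-fold and 5.04-fold. In DPC-like cells it was 163 CPM (155–170) and 113 CPM (106–120), for a ratio of 0.694 (0.642–0.751). The control order of classes was DPC-like, outer bulge-like, dermal sheath cup-like and IFE basal-like, while in TP the IFE basal-like and DPC-like levels overlapped at the top.

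Within the DPC-like cells, Nrg1 was held by 1 of 2 clusters. The cluster led by Adgrb3 and Vcan, a matrix proteoglycan of the papilla, had 299 CPM (285–313) in control and 129 CPM (121–137) in TP, for a ratio of 0.431. The cluster led by Ndnf had 21.9 CPM (18.2–26.1) and 23.2 CPM (15.5–33.3). The first cluster held 50.8% of the class UMIs in control and 85.0% in TP, so the class ratio of 0.694 mixes a lower level with a larger weight of the cluster that has the gene.

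In outer bulge-like cells, the follicle stem cell region, Nrg1 was at 116 CPM (98.6–135) in control and 57.2 CPM (51.8–63.1) in TP. Of the 8 members tested there, Nrg1 and Erbb4 were lower in TP and Areg and Tgfa higher, against 3.88% of 10581 genes lower, 2.56% higher and 6.45% either. With TMM scaling the Nrg1 ratio of 0.493 became 0.547 and no longer passed. The Areg ratio of 4.80 rested on 3 UMIs in control (interval 1.58–23.8), and the Tgfa ratio of 2.28 (1.23–4.69) on 11, and the thinned share of cells with Tgfa went the other way, at 1.44% in control and 1.11% in TP. Erbb4 was at 18.2 CPM (11.8–26.9) and 8.23 CPM (6.25–10.6). After thinning, 4 members, Nrg1 but not Erbb4 among them, had enough UMIs in this class and 0 passed the 2-fold limit. Of 6319 genes tested after thinning, 296 were 2-fold apart. The thinned ratios were 0.562 for Nrg1 and, from too few UMIs to be counted, 0.577 for Erbb4. Dermal sheath cup-like cells had Nrg1 at 50.5 CPM (38.1–65.6) and 49.3 CPM (33.0–70.8), with overlapping intervals, from 56 and 29 UMIs. The ratio after thinning was 5.30, but thinning left fewer UMIs than these and no interval was computed.

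**Figure D4:**
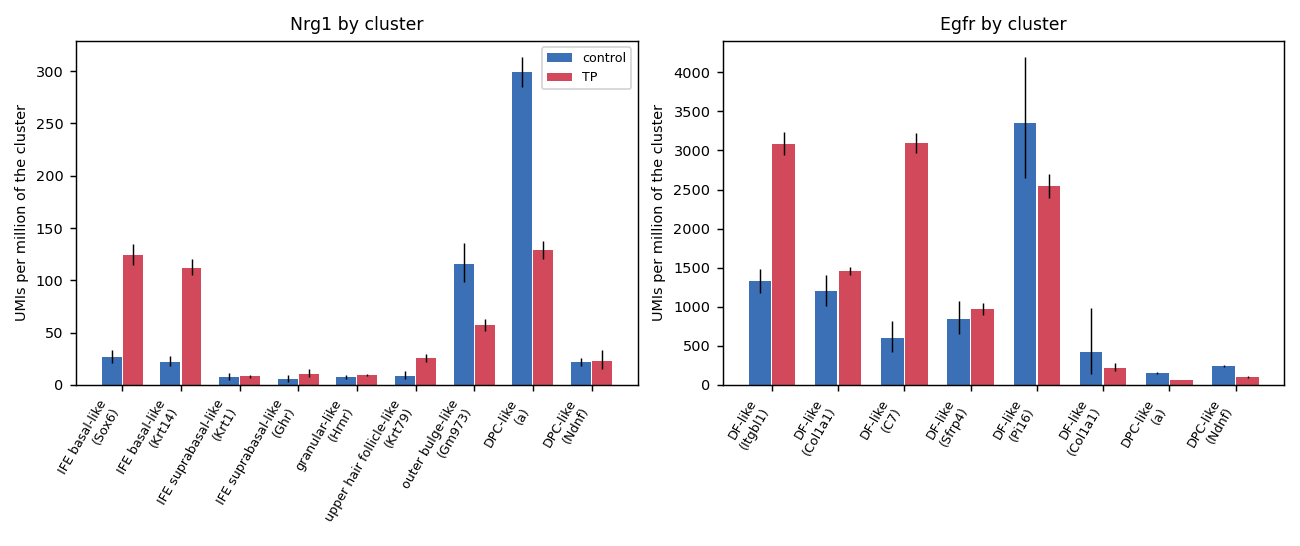
Level (CPM, linear axis from 0) of Nrg1 in 9 clusters and of Egfr in the 6 DF-like and 2 DPC-like clusters, control in blue and TP in red, with 95% counting intervals. Nrg1 is at 299 and 129 CPM in the Adgrb3-led DPC-like cluster, and Egfr is at 1324 and 3082 CPM in the Itgbl1-led DF-like cluster.

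Of the receptors, Egfr was by far the best covered, with 57791 UMIs in control and 54255 in TP. Over all cells it was at 542 CPM (537–546) and 416 CPM (412–419), for a ratio of 0.768 (0.759–0.777) that stayed below 1 in every alternative, between 0.734 and 0.975. Its highest control levels were in DF-like cells, at 1204 CPM (1111–1304), outer bulge-like cells, at 1092 CPM (1038–1149), and cortex and shaft-like cells, at 1038 CPM (1017–1059), whose intervals chain together. In TP the DF-like cells stood alone at 1844 CPM (1805–1883), for a ratio of 1.53 (1.41–1.66), and held 16.04% of Egfr UMIs against 1.05% in control. The class held 3.62% of all UMIs in TP against 0.474% in control, so the Egfr shares carry the class size with them. The make-up of the class moved with the ratio of 1.53: the cluster led by Itgbl1 gave 41.7% of the DF-like UMIs in control and 12.1% in TP. In DF-like cells 0 of 3 members tested were 2-fold higher or lower, against 2.92% of 9004 genes higher, 9.9% lower and 12.8% either.

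The DF-like clusters did not share 1 Egfr ratio. The cluster led by Itgbl1, with 116 control and 163 TP cells, was at 1324 and 3082 CPM, for a ratio of 2.33 (2.05–2.65). The cluster led by C7 and C3, with 17 and 92 cells, was at 594 and 3094 CPM, for a ratio of 5.21 (3.75–7.45), and the cluster led by Col1a1 and Sparc, with 25 and 188 cells, at 1197 and 1453 CPM, for a ratio of 1.21 (1.03–1.44). A cluster led by Pi16 was at 3356 and 2544 CPM, lower in TP, but from 6 control cells. Apart from the Itgbl1-led cluster, each of these control values came from 25 cells or fewer.

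On class totals, these epidermal and follicle classes had lower Egfr in TP: outer bulge-like cells 1092 and 654 CPM (ratio 0.599, 0.565–0.635), IFE suprabasal-like cells 415 and 293 CPM (0.705, 0.671–0.740), granular-like cells 379 and 276 CPM (0.728, 0.702–0.754) and IFE basal-like cells 438 and 369 CPM (0.844, 0.805–0.885). TMM scaling within each class brought these ratios to 0.664, 0.851, 0.938 and 0.965. Of 39 clusters with at least 20 Egfr UMIs, the interval of the ratio lay below 1 in 23 and above 1 in 8. The latter included an unnamed cluster led by Ntn1 (1.21, 1.14–1.28) and a cycling cluster led by Hist1h2ae (1.07, 1.02–1.12). The make-up of the IFE suprabasal-like class moved too: its cluster led by Krt1, which had the lower Egfr, went from 65.8% to 80.2% of the class UMIs, and the ratio was 0.807 in that cluster and 0.843 in the other. The Egfr background moved the same way as these classes. Lymphocyte-like cells, taken as the measure of free RNA, had Egfr at 360.0 CPM in control and 92.6 CPM in TP, and the thinned share of these cells with an Egfr UMI was 17.8% (42 of 236 cells, 13.1–23.3) and 2.91% (3 of 103 cells, 0.605–8.28), with median depths of 1479.5 and 1445.5 UMIs. The cluster led by Ptprc and Cd247 carried 157 of the 194 control UMIs, at 631 CPM. Without it the background was 127 CPM (89.7–176) and 53.7 CPM (26.8–96.0), and the shares were 10.4% (6.16–16.1) in control and 2 of 80 cells (0.304–8.74%) in TP. The part of the background in the lower Egfr levels was not tested. The shares in outer bulge-like cells in control, 61.9%, and in DF-like cells in TP, 66.6%, were far above this background.

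In DPC-like cells 2 of 8 members, Egfr and Erbb3, were lower in TP and 0 were higher, against 8.23% of 12822 genes lower, 3.84% higher and 12.1% either. Egfr there was at 196 CPM (188–204) and 68.6 CPM (63.1–74.5) and Erbb3 at 13.02 CPM (11.03–15.3) and 5.39 CPM (3.93–7.21). The cluster led by Adgrb3, which had the lower control levels of both, went from 50.8% to 85.0% of the class UMIs. Egfr had a ratio of 0.423 there and 0.407 in the cluster led by Ndnf, both above the class ratio of 0.351. Erbb3 had a ratio of 0.622 in the first, under the 2-fold limit. In the second it was 0.277, from 6 TP UMIs, against 0.414 for the class. Both class ratios therefore carry the class make-up with them. The thinned shares of control DPC-like cells with a UMI were 15.5% for Egfr and 1.54% for Erbb3, against 17.8% and 1.69% (0.464–4.28) of the control lymphocyte-like cells, or 10.4% and 1.83% without the cluster led by Ptprc. Each lay within those intervals, so neither gene was told apart from background in control DPC-like cells by share. By level, the control Egfr of 196 CPM (188–204) lay below the 360.0 CPM (311–414) of the lymphocyte-like cells. It lay above their 127 CPM (89.7–176) without the cluster led by Ptprc, and the part of the background in it was not tested. In TP the Egfr share of 5.78% (4.56–7.22) lay within the interval of the lymphocyte-like cells. Egfr in melanocyte-like cells (260 and 70.3 CPM) and endothelial-like cells (282 and 109 CPM) had the same order of libraries as the lymphocyte-like cells.

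Among the classes of at least 100 cells, Erbb2 and Erbb3 were highest in epithelial classes. Erbb2, the receptor without a ligand, had 4870 and 5893 UMIs, 45.6 CPM (44.4–46.9) and 45.2 CPM (44.0–46.3), and a ratio of 0.990 that went from 0.953 to 1.27 over the alternatives. Among the classes of at least 100 cells it was highest in inner root sheath-like cells (granular-like with clusters at resolution 0.5), at 72.0 CPM (68.0–76.2) and 79.3 CPM (72.0–87.1), and next in granular-like cells, at 64.8 CPM (60.4–69.5) and 70.7 CPM (67.9–73.6), with overlapping intervals. Erbb2 was lower in TP in lower follicle and matrix-like cells, for a ratio of 0.421 (0.251–0.674) from 116 and 21 UMIs. This ratio was 0.235 after thinning, which left fewer UMIs. In cycling cells the ratio was 0.572 (0.509–0.643) for the class, but 1.10 (0.892–1.35), 0.597 (0.501–0.709) and 1.20 (0.803–1.83) in its clusters led by Knl1, Hist1h2ae and Anln, and the Knl1-led cluster, which had the highest Erbb2 level of these, went from 38.6% to 8.61% of the class UMIs. Erbb3, whose kinase is nearly inactive and which signals through a partner, had 5050 and 6602 UMIs, 47.3 CPM (46.0–48.6) and 50.6 CPM (49.4–51.8), and a ratio of 1.07 that ran from 0.973 to 1.42. Upper hair follicle-like cells had the highest Erbb3 level among the classes of at least 100 cells (granular-like in control with clusters at resolution 0.5), 79.3 CPM (69.1–90.6) in control and 84.9 CPM (78.4–91.8) in TP, and granular-like cells followed at 74.4 CPM (69.6–79.3), overlapping, and 73.9 CPM (71.0–76.9). The Schwann-like cells, 11 and 25 in number, stood first in both libraries, at 342 CPM (125–744) and 187 CPM (89.7–344), from 6 and 10 Erbb3 UMIs.

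Erbb4 was scarce, at 184 and 274 UMIs, 1.72 CPM (1.48–1.99) and 2.10 CPM (1.86–2.36). Melanocyte-like cells, 480 in control and 196 in TP, held 42.9% and 47.4% of it. There it was at 57.8 CPM (45.8–72.0) and 110.1 CPM (92.0–131), for a ratio of 1.90 (1.43–2.55), and the thinned share of cells with a UMI was 6.76% (4.54–9.63) and 13.2% (8.57–19.2). In lymphocyte-like cells 0 of 236 thinned control cells and 0 of 103 thinned TP cells had an Erbb4 UMI, which by 3 counts allows shares of up to 1.27% and 2.91%. Erbb3 in melanocyte-like cells was also higher in TP by its interval, at 32.2 CPM (23.4–43.2) and 57.6 CPM (44.7–73.0). Both ratios were under 2-fold on class totals, but with TMM scaling they were 2.20 for Erbb4 and 2.06 for Erbb3. A small cluster led by Pax7, a muscle stem cell gene, had 8 Erbb4 UMIs in 2 of its 17 TP cells and 0 in its 20 control cells.

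Among 47 other genes of the pathway, 8 were higher in TP and 5 lower over all kept cells, where 8.11% of all genes were higher and 10.3% lower, so the count of lower genes was near the background. The median log2 ratio of the list was -0.17 against -0.23 over all genes. Of 5 further ligands, Epgn, the neighbour of Ereg and Areg, was higher, at 7.33 CPM (6.82–7.86) and 24.7 CPM (23.8–25.5), for a ratio of 3.37 (3.11–3.64). Nrg2 and Nrg3 were lower, at 123 and 33.6 CPM and at 47.4 and 12.2 CPM, but with the class mix held their ratios were 0.579 and 0.605, under the 2-fold limit. Egf had a ratio of 0.611 and Nrg4 of 1.43. None of the 4 shedding genes was 2-fold apart, and Adam10 had a ratio of 0.678.

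The early response group held 5 of the 8 higher genes and 0 lower of its 11, beside the 8.11% and 10.3% of all genes. Fosl1, the FOS-family gene FRA1, was at 4.11 CPM (3.74–4.52) and 55.1 CPM (53.8–56.4), for a ratio of 13.4 (12.2–14.8), and its level was more than 2-fold higher in granular-like (6.57-fold), IFE basal-like (7.75-fold), IFE suprabasal-like (9.40-fold) and upper hair follicle-like cells (12.4-fold). It was also higher in inner root sheath-like (10.6-fold) and cycling cells (11.4-fold). From control levels under 1 CPM it was higher in DPC-like (5.56-fold), cortex and shaft-like (42.6-fold) and lower follicle and matrix-like cells (58.1-fold). The ratio was below 1 in melanocyte-like cells (0.579, from 4.39 and 2.54 CPM) and in the 11 and 25 Schwann-like cells (0, from 56.9 and 0 CPM). Both ratios rest on few UMIs and have no interval, so they do not show a lower level. Fos, Egr1, Phlda1 (2.54-fold) and Ier3 (2.18-fold) were the others. Jun had a ratio of 1.75 and Plaur, the urokinase receptor, of 1.72. Of 16 inhibitors and feedback genes, the ERK phosphatase genes Dusp6 and Dusp5 were higher, at 2.496-fold (2.32–2.69) and 2.33-fold (2.13–2.55), while Dusp4, which encodes another such phosphatase, and Spry4, a RAS pathway inhibitor, were lower, with ratios of 0.222 (0.198–0.248) and 0.455 (0.396–0.523). With the class mix held the ratios were 2.27 for Dusp6, 1.94 for Dusp5, 0.443 for Dusp4 and 0.810 for Spry4. Dusp5 and Spry4 thus fell under the 2-fold limit. Lrig1, which lowers the amount of EGFR protein, had a ratio of 1.87, and Spred2, Socs5 and Cbl had ratios of 0.662, 0.722 and 0.741. Among 11 adaptors and kinases, Braf alone was apart, lower with a ratio of 0.454 that came to 0.874 with the class mix held, and Mapk3 had a log2 ratio of 0.59. With the class mix held, 6 of the 47 were higher and 1, Dusp4, was lower, where 3.06% and 3.02% of all genes were.

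**Figure D5:**
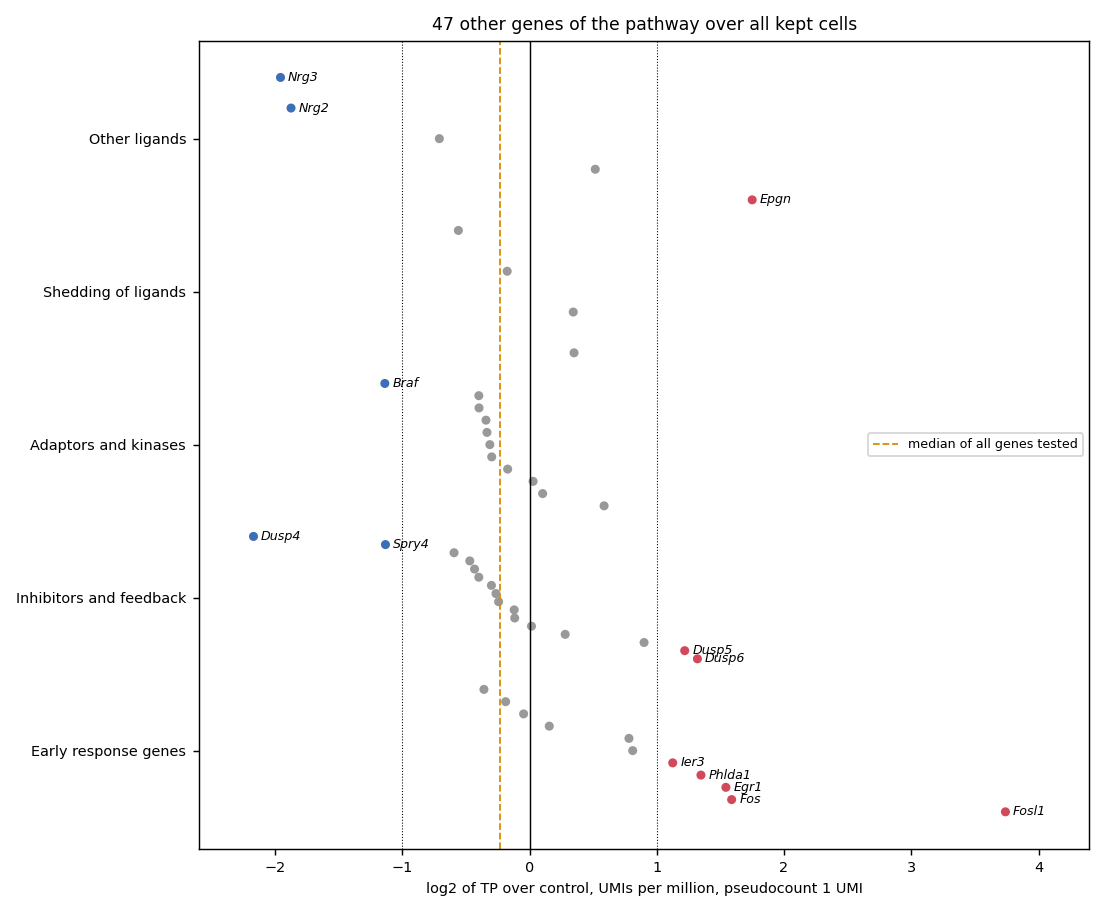
log2 of the TP to control ratio over all kept cells for 47 other genes of the pathway, in 5 groups, with the orange dashed line at the median of all genes tested (-0.23). Fosl1 is the farthest above (13.4-fold) and Dusp4 the farthest below (ratio 0.222).

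Levels across the 19 named classes in both libraries (38 points, log2 of CPM plus 1) were compared with those of 12193 genes. The points share libraries, depth and the number of cells behind them, so the values of Pearson's r are a description. Ereg lay closest to Serpina12 (r = 0.89), Flg2 and Wfdc5 (both 0.84), genes of the cornifying epidermis, and Hbegf to Serpinb3b (0.85), Krt80 (0.81) and Stap2 (0.80). Areg lay closest to Ceacam19 (0.82), Rnf39 (0.81) and Ociad2 (0.80), and Tgfa to Txnrd3 (0.86), Ccdc3 (0.83) and Rpl9-ps6 (0.83). For Nrg1 the closest were Cacnb1 (0.79), Rac3 (0.79) and Stoml1 (0.77). For the receptors they were Sec22a (0.85), Larp1 (0.85) and Gpr107 (0.84) for Egfr, Emp2 (0.87), Csnk2a1 (0.85) and Mycbp (0.84) for Erbb2, and Celsr2 (0.87), Copg2 (0.84) and Mettl25 (0.83) for Erbb3. Within the family the most alike pairs were Ereg with Areg (0.69), Erbb3 with Erbb2 (0.65) and Tgfa with Areg (0.65).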

How the data were processed

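One library per group, control and TP, was used. The authors made 10x Chromium 3' libraries and ran Cell Ranger 8.0.1 against mm10. They deposited raw UMI counts, whole numbers for every gene in every barcode called as a cell. Barcodes were kept if they had 200 to 8000 genes and no more than 10% mitochondrial UMIs. A rewritten DoubletFinder procedure (artificial doublets 25% of the merged data, nearest 1%) marked 7.5% of barcodes per library, which were removed. Seurat 5.3.0 in R 4.3.3 was used with 2000 variable genes, none of them a member or pathway gene, reciprocal PCA integration, 30 components and resolution 1. DF-like and immune-like clusters were clustered again at 0.3 and 0.6. Clusters were named from marker lists, with score limits set after the clusters were seen.

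UMIs were summed per library and class. Intervals are exact Poisson for levels, exact conditional binomial for ratios and Clopper-Pearson for shares; they cover counting error only. With 1 library per group no test was run. Shares were also computed after thinning to 1000 UMIs per cell, which left out 5362 control and 884 TP cells. edgeR 4.0.16 gave TMM factors only. Calls within classes were made in IFE basal-like, IFE suprabasal-like, upper hair follicle-like, outer bulge-like, DF-like and DPC-like cells.

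The members and gene lists were chosen with earlier results of these data known. All 10 members were named, the pathway genes that were 2-fold apart with the 10 largest ratios of the rest, and, for each member with at least 500 UMIs, the 3 genes of most like pattern. Protein sequences were not analysed here.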

Additional observations from a re-analysis of the deposited data

Results flagged for a closer look

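Of the 10 members, 3 had a counting interval above 1 in some of the 6 classes compared and below 1 in others, with 1 library per group, so the difference between classes was not tested. The share of all genes that go both ways was not computed, so the count of 3 is not read as a trait of the members. Nrg1 had a TP to control ratio of 4.86 (4.11–5.79) in IFE basal-like cells and 0.493 (0.410–0.596) in outer bulge-like cells. For Egfr the ratio was 1.53 (1.41–1.66) in DF-like cells and 0.351 (0.319–0.384) in DPC-like cells, whose clusters were at 0.423 and 0.407. The control share of DPC-like cells with Egfr lay within the interval of the background. Their control level of 196 CPM lay below the background of 360.0 CPM and above that of 127 CPM without the cluster led by Ptprc. Erbb2 stood at 1.21 in IFE basal-like cells and 0.697 in DPC-like cells, both under the 2-fold limit, and its DPC-like levels of 23.4 and 16.3 CPM lay within the intervals of the lymphocyte-like cells.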

How the results depend on the processing

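No paired analysis was possible because each group is 1 library, and for the same reason no replicate could be left out. Over all kept cells, 3 to 5 of the 10 members were 2-fold apart in the alternatives, all of them higher in TP. The count was 5 with TMM scaling, where 1931 of 17561 genes were higher and 1052 lower. It was 3 with a pseudocount of 0.1 per 10000 UMIs, where 291 genes were higher and 144 lower. It was also 3 with clusters weighted by control shares, where 3.06% of genes were higher and 3.02% lower. The TP to control ratio ranged over the alternatives from 2.44 to 3.76 for Areg, 4.17 to 8.40 for Ereg, 4.24 to 8.65 for Hbegf, 1.61 to 3.15 for Tgfa, 1.43 to 2.74 for Btc, 0.734 to 0.975 for Egfr and 1.09 to 1.94 for Erbb4, each on 1 side of 1. The ranges of Erbb2, Erbb3 and Nrg1 (0.903 to 2.26) crossed 1. Over all kept cells TMM scaling multiplied every ratio by the inverse of 0.844, while within classes each class had its own factors. The 13 of 47 pathway genes that were 2-fold apart, where 18.4% of all genes were, became 7 in each of 2 alternatives. With clusters weighted by control shares, 3.06% of all genes were higher and 3.02% lower. With a pseudocount of 0.1 per 10000 UMIs, 291 of 17561 genes were higher and 144 lower. After thinning, upper hair follicle-like cells had 1 member apart of 6 tested in place of 3 of 8, with a Nrg1 ratio of 3.99. Of all genes tested there, 180 of 6746 were apart in place of 502 of 10294. Outer bulge-like cells had 0 apart of 4 tested, in place of 4 apart of 8. Of all genes tested in that class, 296 of 6319 were apart in place of 682 of 10581. The ratios there were 0.562 for Nrg1 and 0.577 for Erbb4, and Erbb4 had too few UMIs left to be counted. The cause of these changes was not tested. TMM scaling made Hbegf 2-fold apart in DF-like cells (1 member in place of 0) and in DPC-like cells (ratio 2.02, 3 members in place of 2). It made Tgfa 2-fold apart in upper hair follicle-like cells (ratio 2.09, 4 members in place of 3) and ended the Nrg1 call in outer bulge-like cells. With TMM scaling, 967 of 9004 genes were apart in DF-like cells and 1499 of 12822 in DPC-like cells. In upper hair follicle-like cells 479 of 10294 were apart, and in outer bulge-like cells 664 of 10581. Leaving the cluster led by Ptprc out of the lymphocyte-like background, an alternative chosen after seeing the data, moved its Egfr level from 360.0 to 127 CPM in control and from 92.6 to 53.7 CPM in TP. The Tgfa ratio in outer bulge-like cells turned to 0.875 after thinning, and the cause was not tested. Within classes, 24 of 114 ratios crossed 1 in some alternative and 37 moved by over 1.5 times. At resolution 0.5 lower follicle and matrix-like, dermal sheath cup-like, lymphocyte-like, Schwann-like, neutrophil-like and skeletal muscle-like cells (the cluster led by Pax7) were not named, so their values could not be recomputed. With clusters at resolution 0.5 the class of highest Tgfa was cortex and shaft-like. The least covered member, Btc, with 53 control UMIs, is limited by depth.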
